A study of Mus musculus with 8 samples.

Results

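Nuclear genes for the mitochondrial ribosome, the respiratory chain with ATP synthase, and the protein import machinery were followed through a map of N6-methyladenosine (m6A) in mouse stem cells. A gene counted as a member when its symbol began with Mrpl, Mrps, Nduf, Timm, Tomm, Atp5, or Cox and a digit, and it had a called m6A site in both control libraries. This rule gave 130 of the 8806 genes present in both control lists. They comprise 63 mitoribosome genes (42 of the large and 21 of the small subunit), 46 respiratory chain and ATP synthase genes, and 21 import genes (13 Timm and 8 Tomm). By symbol, the 46 split further into 36 genes counted as structural subunits and 10 assembly factors. The subunits are 20 of complex I, 6 of complex IV and 10 of ATP synthase, and the assembly factors 4 for complex I and 6 for complex IV. Ndufa4l2 and Ndufb11b were counted with complex I by prefix alone, and Ndufb11b is not among the protein-coding names of RefSeq. The symbol alone decided membership, so Timmdc1, which is known as a complex I assembly factor, stands with import, and Cox7a2l, known as a supercomplex assembly factor, stands with the complex IV subunits.

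Most mitochondrial proteins are encoded in the nucleus, made in the cytosol and imported. The TOM complex forms the gate of the outer membrane, the TIM complexes sort proteins at the inner membrane, and small Timm chaperones escort hydrophobic cargo between the membranes. The mitoribosome translates the few respiratory chain proteins that mitochondrial DNA encodes, and assembly factors join these to the imported subunits. m6A is placed on messenger RNA by a writer complex in which Virma acts as a scaffold, and the mark is known to influence the stability and use of transcripts.

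The study comprises 8 mouse libraries, 2 for each of 4 groups, measured by GLORI, a chemistry in which unmethylated adenosine is read as guanosine while m6A is still read as adenosine. TBLC kept in MYCP medium were given an siRNA against Virma (siVirma) or a control siRNA (siNC), and no other allele or agent is recorded for either group. EPSC received a dCas13b-FTO demethylase system with a guide against Gata6 (sgGata6) or a control guide (sgCtrl), and the deposited EPSC table has 1 pooled value for each group. An m6A level is the share of A among the A and G reads at a site, so any adenosine that escaped conversion counts towards it. The labels do not say whether replicates were separate cultures, so a p-value here reflects library-to-library spread that may be technical.

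The depth over listed sites was 3423268 and 2655963 reads of A or G in siVirma, against 4764955 and 4367999 in siNC. The deposited gene coverage of Virma itself was 24.0 and 22.8 in siVirma, against 40.3 and 38.2 in siNC. Both siVirma libraries lay below both siNC values, and no other measure of Virma was used here. The median conversion rate of member genes was 0.989 in both siVirma libraries, against 0.983 in both siNC libraries. Of 24 genes of the 2-cell stage program, which TBLC are expected to express, 14 had a site in both siNC libraries, and Dux and Tcstv1 were among those that did not. Of 14 naive pluripotency genes 13 had one, the exception being Dppa3. A gene without a called site has no row, so a missing row does not show that a marker was not expressed.

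A larger share of the mitochondrial genes than of all protein-coding genes had a called site in siNC, and the median member had fewer sites. Of 197 protein-coding mouse gene names with these prefixes in RefSeq (GRCm38.p6), 129 were members, which is 65.5%. Over all 21900 protein-coding names, 35.8% had a site in both siNC libraries. The share was 80.8% for the mitoribosome (63 of 78) and for import (21 of 26), and 48.4% for the respiratory chain and ATP synthase (45 of 93). A site is called only where a transcript has enough reads, so these shares also carry expression, whose part was not tested. The member sites had a median of 67.5 A+G reads in siNC, against 43.5 over all sites.

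Sites called at the same base in both siNC libraries numbered 419 in 127 members, of 49554 in the series. The median member had 2 such sites, against 3 over all genes, and 47 of 127 members (37.0%) had 1 site, against 24.3% of all genes. The groups differed in this. The median was 3 sites for mitoribosome genes, 2 for import genes, 4 for respiratory assembly factors and 1 for respiratory subunits. All 10 ATP synthase genes had 1 site each. The largest number, 17, was in Timm29, a component of the TIM22 translocase for carrier proteins. Mrpl10, a protein of the large subunit's stalk base, had 15 sites, and Mrpl50 and Mrps2, of the large and small subunit, had 13 each. Mrpl43 and the complex I assembly factor Ndufaf1 had 9 each. Ndufaf4, another complex I assembly factor, had 8, and the import receptor Tomm70a had 7.

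Many member sites lay close together. Among members with more than 1 site, 40.1% of sites had a neighbour within 30 nt in the same gene, against 32.6% over all sites, and in mitoribosome genes this was 44.8%. The exon, intron or UTR of a site is not stated here, because no annotation of the files' build was used.

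Listed member sites had a lower median m6A level in siNC than all listed sites. Their median level was 0.343, against 0.410 over all sites, and 33.2% of them reached 0.5, against 40.4%. The respiratory subunits were lowest, with a median of 0.204 over 49 sites, of which 6 reached 0.5. Mitoribosome sites had a median of 0.355, import sites 0.331 and respiratory assembly factor sites 0.401. The 10 ATP synthase sites had a median of 0.212, and none reached 0.5. A listed site needs at least 5 A reads as well as a level of 0.1, so deeper genes can list lower sites. Member sites were deeper, with a median of 67.5 A+G reads against 43.5 over all sites. The part of depth in these levels was not tested.

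**Figure D1:**
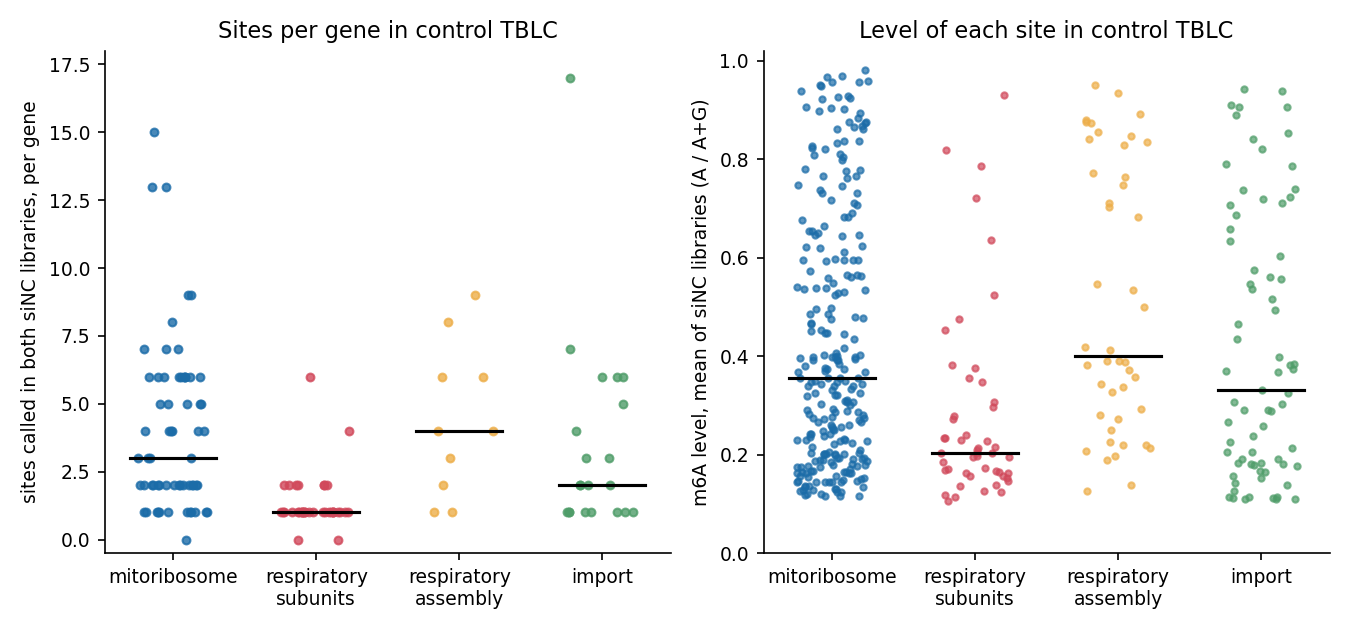
Sites called in both siNC libraries per member gene (left, count; points are genes) and the m6A level of each of those sites (right, mean of 2 siNC libraries; points are sites), by group, with black bars at the medians. Respiratory subunits have a median of 1 site per gene and a median level of 0.204, against 3 sites and 0.355 for the mitoribosome.

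The first comparison asks which of these sites were still called after Virma knockdown. Of the 419 member sites, 199 (47.5%) were called in both siVirma libraries, close to the 47.1% over all sites, and 159 (37.9%) were in neither, against 33.1% over all sites. The share called in both was 47.0% for mitoribosome genes, 43.8% for import genes, 50.0% for respiratory assembly factors and 53.1% for respiratory subunits. The shares within ranges of the siNC level were less alike. A site that starts low falls more easily under the lists' minimum level of 0.1, so the shares are given by range.

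Among sites at 0.6 to 1 in siNC, between 95.2% and 100% were called in both siVirma libraries in each of the 4 sets, against 87.9% over all sites. The values of 100% rest on 5 subunit sites and 17 assembly factor sites. Member sites in this range had a median of 60 A+G reads in siNC, from 36.5 in assembly factors to 75.5 in the mitoribosome. Over all sites it was 36, and the part of depth was not tested. Among sites at 0.1 to 0.3, 16 of 36 respiratory subunit sites (44.4%) were called in both. In the same range this held for 8 of 104 mitoribosome sites (7.69%), 1 of 33 import sites, 0 of 13 assembly factor sites and 7.57% of all sites. The 16 subunit sites kept a median of 97.9% of their siNC level, and the kept sites over the whole series kept 59.4%. Of the 8 mitoribosome sites that stayed, the median kept was 98.6%. Sites of 1 gene share a transcript and are not replicates, so these shares carry no test.

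**Figure D2:**
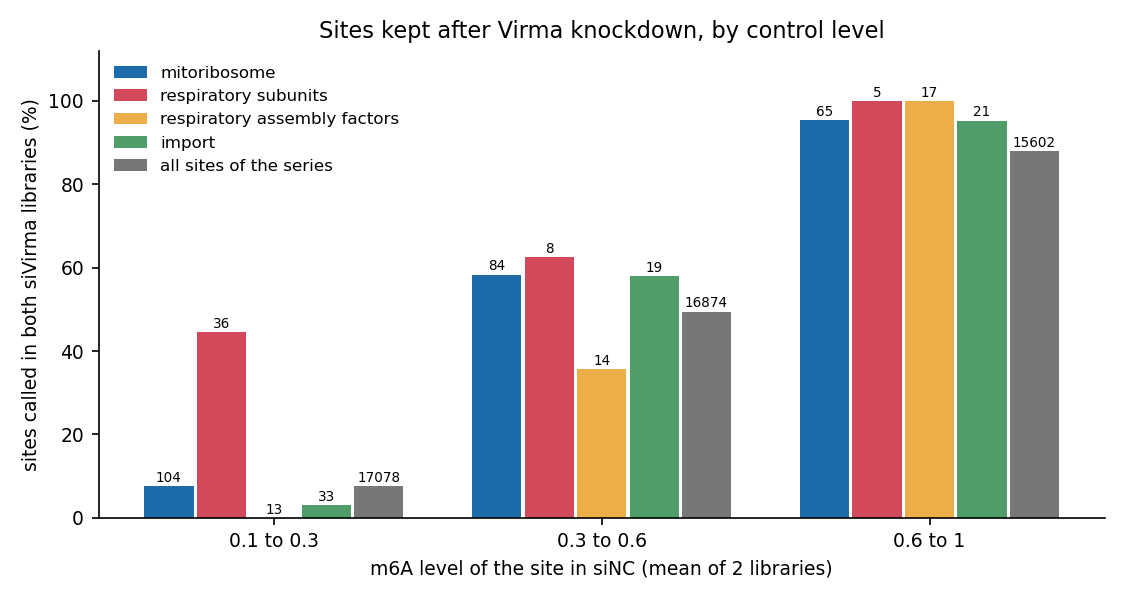
Percent of sites called in both siVirma libraries, for sites grouped by their m6A level in siNC (mean of 2 libraries), in 4 sets of member genes and over all sites; numbers above the bars are sites in siNC. At 0.1 to 0.3 the respiratory subunits reach 44.4%, against 7.57% over all sites.

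In 16 of 127 members (12.6%) no shared siNC site appeared in either siVirma list, against 15.0% of all genes. These were 4 mitoribosome genes, 9 respiratory genes and 3 import genes. Deepest among them were Ndufa2, a complex I subunit with 2 sites and 804 and 770 A+G reads in the siNC libraries, and Tomm7, a small TOM subunit with 1 site and 487 and 458 reads. Atp5pb, of the ATP synthase peripheral stalk, Cox8a, a complex IV subunit, Mrpl30 and Mrpl13 of the large ribosomal subunit, and the small chaperone Timm10 each had 1 site, and Mrpl1 had 2. Timmdc1 had 1 site at 26 and 25 reads. All of these sites had siNC levels under 0.4, with gene medians between 0.110 and 0.373. In the other direction, 218 member sites were called in both siVirma libraries, and 6 of them, in Mrpl28, Ndufa2, Ndufaf1, Ndufaf4, Timm10b and Timm8b, were in neither siNC list, at levels of 0.103 to 0.304. This is 2.75% of the member sites, against 5.93% over all sites called in both siVirma libraries.

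The next comparison asks how far the level fell where it could be followed. Only sites listed in every TBLC library and covered by 20 or more A+G reads each time were used, and reads were summed per gene. Pooled over the 194 such member sites, the level was 0.247 and 0.244 in siVirma, against 0.584 and 0.595 in siNC. The mitoribosome stood at 0.250 and 0.245 in siVirma, against 0.627 and 0.647 in siNC. Import genes stood at 0.235 and 0.247 in siVirma, against 0.609 and 0.606 in siNC. For respiratory assembly factors the pooled level was 0.313 and 0.315 in siVirma, against 0.693 and 0.758 in siNC. For respiratory subunits it was 0.221 and 0.210 in siVirma, against 0.343 and 0.324 in siNC. In each set the siVirma libraries did not overlap the siNC libraries, and this also held over all sites. Over all 20414 sites tested the pooled level was 0.365 and 0.365 in siVirma, against 0.633 and 0.626 in siNC, and 58.0% was kept. The pooled share kept was 38.8% for the mitoribosome, 39.7% for import, 43.3% for assembly factors and 64.7% for subunits. Cox7a2l alone held 1063 and 1051 of the 3033 and 2838 subunit reads in siNC. Without it, a choice made after seeing the data, the other 21 subunits stood at 0.233 and 0.219 in siVirma, against 0.270 and 0.246 in siNC, and kept 87.7% in place of 64.7%. The subunits had the lowest pooled level in siNC.

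By edgeR's quasi-likelihood test over all 5642 genes at a Benjamini-Hochberg adjusted p of 0.05, 75 of 98 members tested were lower in siVirma and 0 were higher. Over all genes, 93.8% were called lower and 0.177% higher, so the share of 76.5% among members lies under the background. The 2 siVirma libraries lay below both siNC libraries in 77 of 98 members, where the background was 95.4%. The mitoribosome had 49 of 52 genes lower, import 15 of 17, respiratory assembly factors 7 of 7, and respiratory subunits 4 of 22. Tested singly, 165 of 194 member sites were lower and 0 higher, against 91.6% and 0.147% of all sites. The median member kept 43.3% of its siNC level and the median gene of the series 44.9%. By set the median kept was 39.9% for the mitoribosome, 35.2% for import, 45.1% for assembly factors and 94.0% for respiratory subunits.

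**Figure D3:**
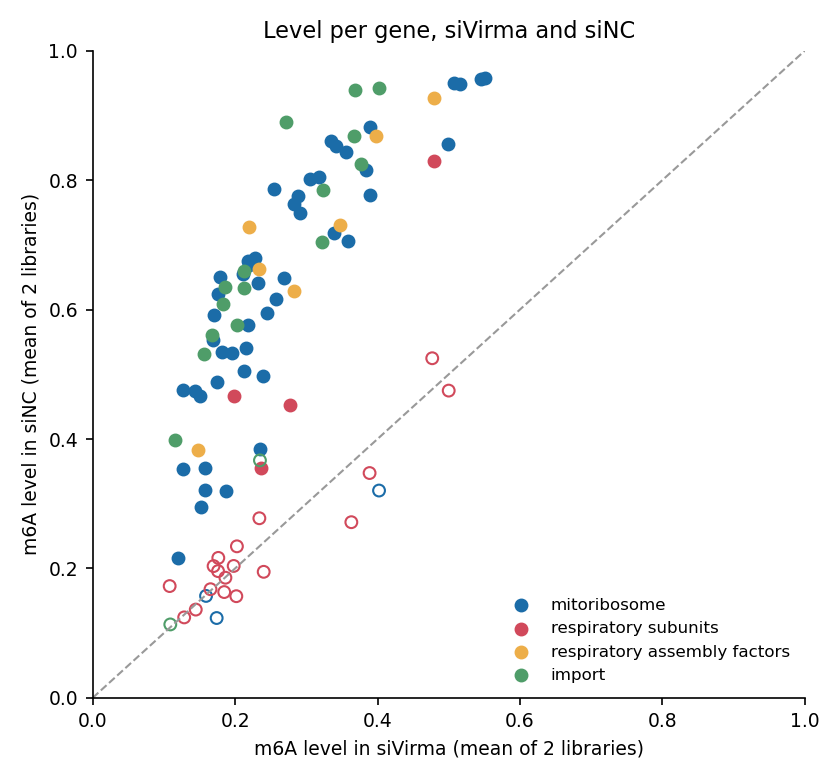
m6A level per member gene in siVirma (horizontal, mean of 2 libraries) and in siNC (vertical, mean of 2 libraries), over the sites tested; the dashed line marks equal levels, filled symbols are genes called lower by edgeR and open symbols genes that were not. Of 98 genes, 75 are called and lie above the line, and 18 of the 23 open symbols are respiratory subunits.

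Mitoribosome transcripts fell broadly. Mrpl57, of the large subunit, had levels of 0.525 and 0.578 in siVirma, against 0.936 and 0.979 in siNC. This was a log2 odds change of -4.13 (SE 0.32, edgeR adjusted p = 3.07e-16), where the odds are A to G reads in siVirma over those in siNC. Mrpl46, also of the large subunit, had 0.272 and 0.237 in siVirma, against 0.822 and 0.751 in siNC (-3.45, SE 0.16, edgeR adjusted p = 6.3e-24). In both genes the siVirma libraries lay well apart from the siNC libraries. Mrpl3 and Mrpl17 fell to means of 0.389 and 0.342 in siVirma, against 0.882 and 0.853 in siNC. The site with the largest fall in this group was in Mrps23, of the small subunit, on mm39 chromosome 11 at 88101639 (+ strand). Its level was 0.239 and 0.306 in siVirma, from 184 and 170 A+G reads, against 0.879 and 0.867 in siNC, from 116 and 128 reads.

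The mitoribosome genes with the most sites also fell, with edgeR adjusted p values of 1.09e-11 or below. Mrps2 had 0.280 and 0.257 in siVirma over 8 sites, against 0.663 and 0.636 in siNC. Mrpl10 had 0.192 and 0.237 in siVirma over 2 sites, against 0.541 and 0.539 in siNC, and its other 13 sites were not in both siVirma lists. Mrpl50, with 5 sites tested, kept more, at 0.514 and 0.482 in siVirma, against 0.853 and 0.860 in siNC. Among genes covered by 100 or more reads per library, the smallest falls that passed were in Mrpl49, at 0.173 and 0.143 in siVirma, against 0.260 and 0.382 in siNC, and in Mrpl22, at 0.126 and 0.114 in siVirma, against 0.195 and 0.235 in siNC. Their edgeR adjusted p values were 0.000273 and 0.00265.

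Not called were 3 mitoribosome genes, Mrps14, Mrps28 and Mrpl21, each with 1 tested site. Mrps14 had 0.136 and 0.182 in siVirma, against 0.188 and 0.127 in siNC, so the groups overlapped. The Mrpl21 site, on mm39 chromosome 19 at 3333061 (+ strand), had 0.218 and 0.130 in siVirma, against 0.147 and 0.1 in siNC, and also overlapped.

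Import transcripts fell in 15 of 17 genes. Timm13, a small chaperone of the intermembrane space, had 0.376 and 0.428 in siVirma, against 0.956 and 0.928 in siNC (log2 odds change -4.61, SE 0.19, edgeR adjusted p = 2.39e-25). This was the largest fall in odds among members covered by 100 or more reads per library. Timm10b, a small Timm of the carrier translocase, carried its tested site on mm39 chromosome 7 at 105290460 (+ strand), with 249 and 193 reads in siVirma and 160 and 148 in siNC, and it kept 30.5% of its level. Timm22, the core of that translocase, had 0.321 and 0.414 in siVirma, against 0.862 and 0.874 in siNC. Its partner Timm29 had 0.388 and 0.365 in siVirma, against 0.838 and 0.810 in siNC.

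All 10 Timm genes tested were lower, and 5 of 7 Tomm genes. In the presequence translocase, Timm17a had 0.168 and 0.143 in siVirma, against 0.521 and 0.542 in siNC, and the receptor Timm50 had 0.201 and 0.166 in siVirma, against 0.615 and 0.604 in siNC. The outer membrane receptor Tomm70a had 0.304 and 0.340 in siVirma, against 0.713 and 0.695 in siNC. The receptor Tomm22 had 0.130 and 0.102 in siVirma, against 0.414 and 0.382 in siNC, with the siVirma values near the lists' minimum, and 5 of its 6 siNC sites were in neither siVirma list. Tomm6, a small TOM subunit, was not called. Its site on mm39 chromosome 17 at 47998960 (- strand) had 0.112 and 0.106 in siVirma from 518 and 396 reads, against 0.120 and 0.107 in siNC from 460 and 494 reads. The other Tomm gene not called was Tomm34, a co-chaperone, at 0.162 and 0.308 in siVirma, against 0.353 and 0.381 in siNC.

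Respiratory assembly factors were lower in all 7 genes tested. Cox19, which serves copper delivery to complex IV, had 0.418 and 0.377 in siVirma, against 0.844 and 0.893 in siNC (log2 odds change -3.31, SE 0.21, edgeR adjusted p = 6.79e-19). Ndufaf7, a methyltransferase needed for complex I assembly, had 0.231 and 0.208 in siVirma, against 0.703 and 0.754 in siNC (-3.23, SE 0.24, edgeR adjusted p = 8.96e-17). Its site with the largest fall, on mm39 chromosome 17 at 79254533 (+ strand), had 0.229 and 0.159 in siVirma, against 0.667 and 0.740 in siNC. Ndufaf4 had 0.341 and 0.355 in siVirma, against 0.693 and 0.768 in siNC. Cox10 and Cox15, which make the heme of complex IV, kept 45.1% and 51.8% of their siNC level, and Ndufaf1 kept 35.3%.

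Few structural subunits passed the test. Of the 22 tested, 4 were called lower, namely Cox7a2l, Ndufv3, Ndufa9 and Atp5mpl. Cox7a2l had 0.202 and 0.196 in siVirma over 3 sites, against 0.478 and 0.456 in siNC (log2 odds change -1.82, SE 0.10, edgeR adjusted p = 7.62e-22). Ndufv3, an accessory subunit of the NADH-oxidising part of complex I, had 0.424 and 0.534 in siVirma, against 0.815 and 0.844 in siNC. Ndufa9, another complex I accessory subunit, had 0.333 and 0.222 in siVirma, against 0.571 and 0.333 in siNC, so 1 siVirma library equalled 1 siNC library (edgeR adjusted p = 0.0288). Atp5mpl, a small ATP synthase subunit, had 0.264 and 0.208 in siVirma, against 0.343 and 0.368 in siNC (edgeR adjusted p = 0.013). With siNC replicate 1 left out the edgeR adjusted p of Ndufa9 was 0.683, and with siVirma replicate 2 left out it was 0.194. With siNC replicate 2 left out that of Atp5mpl was 0.0624, and with siVirma replicate 2 left out it was 0.114. Without siVirma replicate 1 the number of subunits called was 7 of 25.

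The other 18 subunits each rested on 1 site, and none had an unadjusted p under 0.05. Atp5a1, the alpha subunit of the catalytic head of ATP synthase, had the deepest reads in this set. Its level was 0.190 and 0.183 in siVirma, from 510 and 438 reads, against 0.191 and 0.181 in siNC, from 451 and 432 reads (log2 odds change 0.01, SE 0.17, edgeR adjusted p = 0.958). Atp5j, coupling factor 6 of ATP synthase, had 0.243 and 0.226 in siVirma, against 0.299 and 0.256 in siNC (-0.33, SE 0.20, edgeR adjusted p = 0.114). The groups overlapped in Atp5a1 and did not in Atp5j, whose difference did not pass the test. The complex I subunit Ndufs6 had 0.277 and 0.203 in siVirma, against 0.192 and 0.197 in siNC, at a site on mm39 chromosome 13 at 73476574 (- strand).

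Higher siNC levels also occurred in this set. Ndufs4, a complex I subunit, had 0.438 and 0.562 in siVirma, against 0.481 and 0.468 in siNC. Ndufa12 had 0.475 and 0.479 in siVirma, against 0.475 and 0.575 in siNC. Over the 18 genes the level kept ranged from 62.6% (Ndufa10) to 134% (Atp5g3), with a median of 99.5%. The median log2 odds change of all 22 subunits was -0.13, and it was 0.04 without siNC replicate 1. Without that library Atp5g3 and the ribosomal gene Mrps28 were called higher, with edgeR adjusted p values of 0.00734 and 0.0376.

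**Figure D4:**
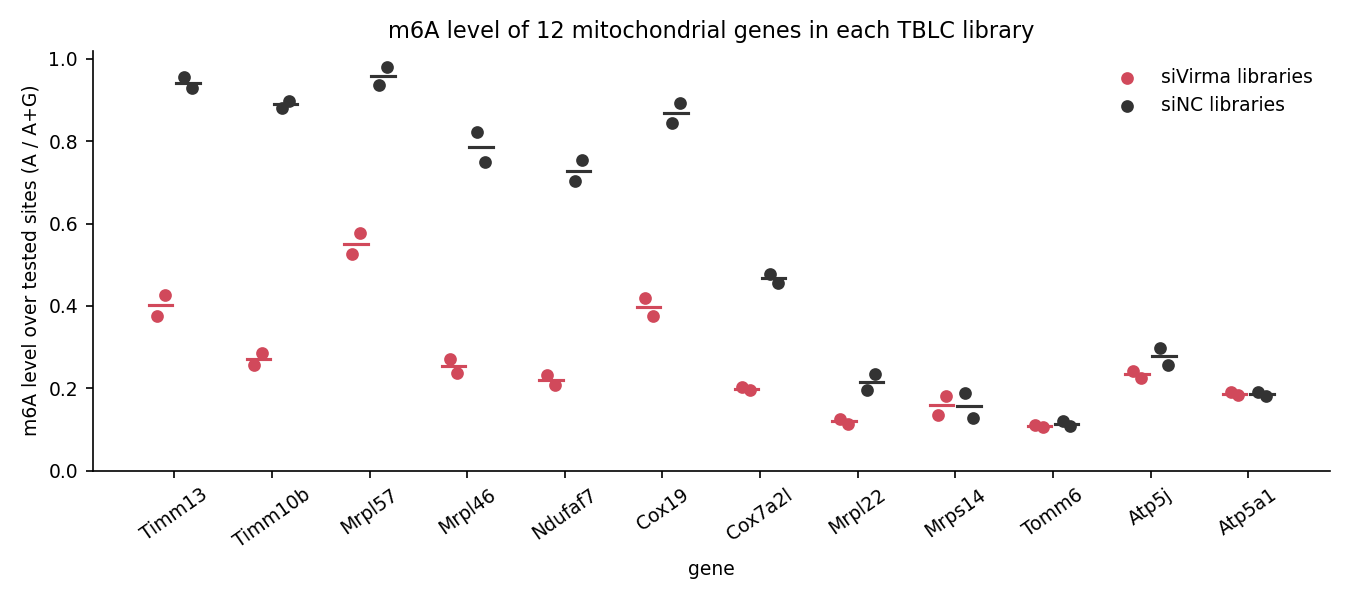
m6A level over the tested sites of 12 mitochondrial genes in each TBLC library (points; siVirma left of siNC for each gene) with the group mean as a bar, n = 2 libraries each. Timm13 averages 0.402 in siVirma and 0.942 in siNC, whereas Atp5a1 averages 0.186 in both groups.

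The calls can also be read by the level a gene started from. A site had to be at 0.1 or above in both siVirma libraries to be tested at all, so a low site that fell far is missing, and 18 of the 49 subunit sites were in neither siVirma list. Among genes at a siNC level of 0.1 to 0.3, 0 of 15 subunits were lower, with a median of 98.6% kept. Over all genes in that range, 76 of 240 (31.7%) were lower and the median kept was 83.4%. Of the 4 mitoribosome genes there, 2 were lower, and Tomm6 was the 1 import gene. At 0.3 to 0.6, 3 of 6 subunits were lower, with a median of 78.7% kept. Over all 2129 genes in that range, 94.4% were lower and the median kept was 41.0%. At 0.6 to 1, 47 of 47 members were lower, against 98.0% of all genes, and 1 of these members was a subunit. Genes for respiratory proteins often have closely related copies in the genome, and whether reads were shared with such copies was not tested.

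The sites that did not pass in TBLC were also absent from the EPSC table. Of the 165 member sites called lower in siVirma, 87 (52.7%) had a row there, and of the 29 not called, 0 had one. Their median depth in siNC was 68.5 A+G reads for sites called lower and 59.5 for those not called. Within ranges of the siNC level the depths differed more. At 0.1 to 0.3 the medians were 94.5 reads (3 sites called lower) and 63.5 (21 not called). At 0.3 to 0.6 they were 74.5 (62 sites called lower) and 41 (8 not called). The part of depth in the missing rows was not tested. Of these 29 sites, 18 were in respiratory subunits, 8 in mitoribosome genes, 2 in import genes and 1 in an assembly factor. The same held in part over the series, where 45.2% of sites called lower and 22.7% of those not called had an EPSC row. At siNC levels of 0.1 to 0.3 these shares were 46.8% of 603 sites called lower and 12.7% of 668 not called. Among member sites not called in that range, 0 of 21 had a row. At 0.3 to 0.6 the shares over the series were 48.0% of 7208 sites called lower and 15.8% of 551 not called. At 0.6 to 1 they were alike, at 43.2% of 10883 sites called lower and 43.7% of 501 not called. The EPSC table lists only sites that met its own minimums of reads and level in sgGata6 or sgCtrl, so a missing row does not show that a base was unmethylated.

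The second measure was the gene coverage deposited with the lists, taken here as a signal of transcript abundance from its column name. It was compared in 109 members that had a site in each of the 4 TBLC lists, after the median change of 0.13 (log2, higher in siVirma) was removed. By limma over 6787 genes, 32 members (29.4%) were higher in siVirma and 7 (6.42%) lower, where the background was 15.6% higher and 10.5% lower. The mitoribosome had 22 of 55 genes higher and 3 lower. Import had 5 higher and 1 lower of 17, assembly factors 3 higher and 0 lower of 7, and respiratory subunits 2 higher and 3 lower of 30. The number of members higher was 20 without siVirma replicate 1 and 21 without siNC replicate 2, and the number lower was 3 without either siNC library. With the median change left in, 8 members were higher and 0 lower.

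The 5 largest rises were all in mitoribosome genes. Mrpl43 had a coverage of 184 and 152 in siVirma, against 88.7 and 86.7 in siNC, a 1.74-fold change after centring (log2 0.80, SE 0.06, limma adjusted p = 6.65e-07). Mrps34, of the small subunit, had 149 and 120 in siVirma, against 80.3 and 78.4 in siNC (1.54-fold, limma adjusted p = 7.26e-06). Mrpl46 had 100.4 and 83.6 in siVirma, against 60.8 and 53.2 in siNC. In these genes both siVirma libraries lay above both siNC libraries. Mrpl16 was 1.42-fold and Mrpl14 1.40-fold higher. All 5 were also called lower in m6A level, and Mrps34 kept 30.5% of it. So were 49 of 52 mitoribosome genes tested and 93.8% of all genes, and the fall does not set these 5 apart. The mitoribosome genes called lower in coverage, Mrpl9, Mrpl27 and Mrpl49, were called lower in level as well.

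The lower calls were smaller. Mrpl9 had 55.1 and 50.1 in siVirma, against 59.0 and 56.4 in siNC, which is 0.831-fold (limma adjusted p = 0.00161). Ndufa7 was also 0.831-fold, Atp5j 0.859-fold, and Mrpl49 and Atp5o, a stalk subunit of ATP synthase, 0.868-fold. Before centring, the coverage of Ndufa7, Atp5j, Mrpl49 and Atp5o overlapped between the groups. Atp5j, for example, had 322 and 288 in siVirma, against 342 and 306 in siNC. Of the 7 lower calls 1 held with each library left out in turn, and of the 32 higher calls 14 did. The median change was 0.15 (log2) for the mitoribosome, 0.13 for import, 0.12 for assembly factors and -0.09 for respiratory subunits. Without centring the last was 0.04, so the direction for the subunits depends on the scaling.

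Marker genes of other cell states were compared by the same measure. Of 20 fibroblast genes listed, 13 had a site in both siNC libraries, 10 could be compared, and 8 were higher and 0 lower in siVirma. Their summed coverage was 672 and 552 in siVirma, against 402 and 377 in siNC, with Dcn, Lum, Col3a1 and Pdgfrb without a row in both siNC lists. The part of such cells in the coverage result was not tested. Of the 2-cell stage genes, 0 were higher and 4 lower of 11 compared, with a median log2 change of -0.07. Of the naive pluripotency genes, 1 was higher and 2 lower of 12, with a median of -0.13. In a bulk library, more cells of a type and more RNA per cell cannot be told apart.

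**Figure D5:**
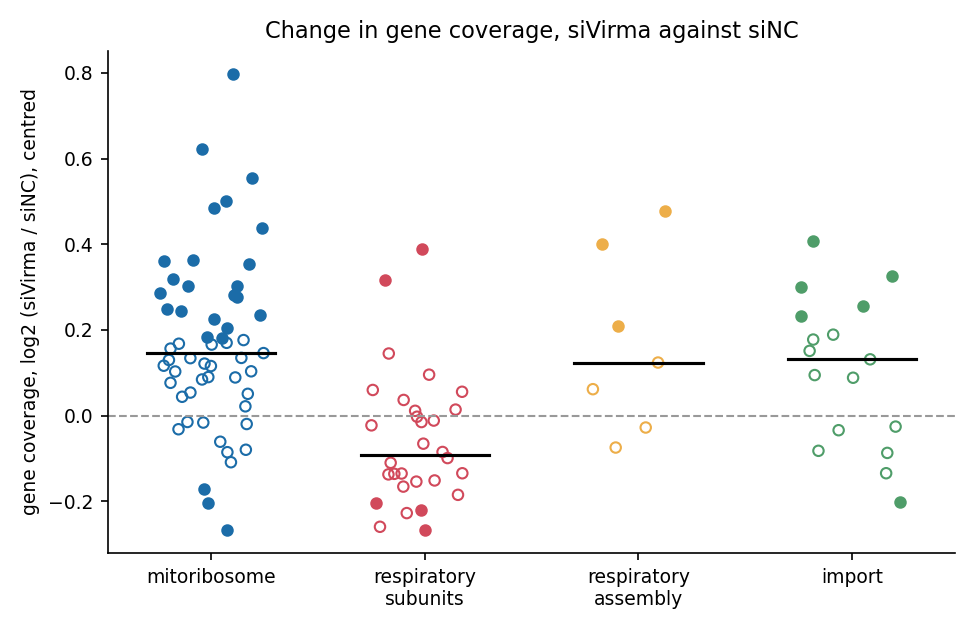
Change in gene coverage of member genes, log2 of siVirma over siNC after the median change of all genes was removed, by group; points are genes, filled where limma called them, and black bars are medians. The mitoribosome median is 0.15 and that of the respiratory subunits is -0.09, and the highest point is Mrpl43 at 0.80.

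Other mitochondrial genes, from lists of complexes and processes, were compared in the same test. Of the genes tested, 9 of 13 were lower for complexes II and III with cytochrome c, 17 of 18 for further assembly factors, 8 of 9 for further import factors and 15 of 15 for upkeep and transcription of mitochondrial DNA. For translation factors and tRNA synthetases 19 of 21 were lower, for biogenesis regulators 10 of 10, and for fusion, fission and turnover 14 of 15. In each list 0 genes were higher, and the medians kept ran from 40.5% to 48.2%. Over all genes tested, 93.8% were lower and 0.177% higher, and the median kept was 44.9%. Most of these shares thus lay near the background, and that of complexes II and III with cytochrome c lay under it. Tfam, which packages and transcribes mitochondrial DNA, had 0.301 and 0.275 in siVirma, against 0.748 and 0.723 in siNC. The translation factor Tufm had 0.237 and 0.278 in siVirma, against 0.722 and 0.745 in siNC. Uqcrfs1, the Rieske subunit of complex III, had 0.241 and 0.233 in siVirma over 3 sites, against 0.550 and 0.537 in siNC. The chaperonin Hspd1 had 0.168 and 0.152 in siVirma, against 0.509 and 0.504 in siNC. Each of these was named because it had the lowest p of its list in edgeR's gene test. Its distance from the spread between replicates follows from that choice and does not describe the list.

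In EPSC the question was whether a demethylase directed to Gata6 left these genes as they were. The pooled table held 171 rows for 75 members, of which 111 were in mitoribosome genes, 35 in import genes, 19 in respiratory subunits and 6 in assembly factors. Over the 94 rows with at least 20 reads in both groups, the median level was 0.303 in sgGata6 and 0.288 in sgCtrl. By Fisher's exact test on pooled reads, which compares these reads and not the conditions, 0 of 94 were called at an adjusted p of 0.05, and 6 (6.38%) had an unadjusted p under 0.05, against 11.8% of all rows tested. The smallest adjusted p was 0.232, and 0.275% of the 10185 rows tested in the series were called. All 171 member rows matched a TBLC list, as did 16314 of the 19342 rows of the series. The member rows were also shallower, with 5614 A+G reads in sgCtrl over 171 rows, against 964966 over 19342 rows. The part of these differences in the shares was not tested.

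Levels of the members with most rows can be read with Wilson 95% intervals, which cover counting error only. Tomm70a, with 9 rows, stood at 0.245 (0.212 to 0.281) in sgGata6 and 0.204 (0.172 to 0.241) in sgCtrl. Mrpl10, with 7 rows, stood at 0.309 (0.252 to 0.373) in sgGata6 and 0.285 (0.220 to 0.360) in sgCtrl. Mrpl50 and Mrps27, with 6 rows each, stood at 0.511 and 0.472 in sgGata6 and at 0.505 and 0.424 in sgCtrl. Cox7a2l stood at 0.475 (0.424 to 0.525) in sgGata6 and 0.509 (0.443 to 0.576) in sgCtrl, and Mrpl12 at 0.684 (0.626 to 0.738) in sgGata6 and 0.677 (0.609 to 0.737) in sgCtrl. The intervals overlapped in every one of these 6 genes.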

How the data were processed

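GLORI libraries were made from mRNA, per the labels' protocols, and the submitters' processing notes name the build mm39. The aligner was not given in the sources used here, nor was the site caller. The deposited lists give counts of A and A+G reads per called site and the level as a fraction, which matched A divided by A+G within 1e-05. Per the file headers they also hold the authors' p-value, a conversion rate per gene (a fraction) and a coverage signal per gene, whose computation no source used here states. Listed sites have at least 15 A+G reads, 5 A reads and a level of 0.1. The deposited EPSC table holds pooled counts of A reads and the A+G coverage of each site per group; its total coverage was not used.

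Levels were tested with edgeR 4.0.16 (quasi-likelihood, a term per library, siVirma effect on A reads) over sites called in all 4 libraries with at least 20 reads each. Log2 coverage was tested with limma 3.58.1 after per-library centring on the median change, and pooled EPSC reads with Fisher's exact test. Adjustment was by Benjamini-Hochberg over all features, at 0.05. Alternatives used DESeq2 1.42.0, limma on logit levels (0.5 added to A and G reads), other read minimums, a replicate block and leaving out libraries. R 4.3.3 and Python 3.11.15 were used.

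Members and lists were chosen with earlier results of these data known. Named genes are those with the most sites, the largest and smallest changes (at least 100 reads; sites, 50), all sites missing in siVirma, the largest coverage changes and the most EPSC rows. From the lists of other mitochondrial genes, those named had the lowest p of their list in the gene level test. Others, such as Ndufs4, Ndufa12, Tomm34 and Mrps28, were named after their values were seen. In simulated data with 200 changed features, edgeR recovered 53.5% of sites and 74.0% of genes at 0.5 of their level. Recovery by limma was 89.5% of genes at 2-fold coverage. The simulation changed 200 of 20414 sites and 200 of 5642 genes, whereas in the data 91.6% and 93.8% were called lower. It also kept sites that fell under the lists' minimum level. These recoveries therefore do not give the power of the level tests here.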

Additional observations from a re-analysis of the deposited data

How the results depend on the processing

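The number of members lower in m6A level was 72 to 79 with single libraries left out and 57 of fewer tested genes with a minimum of 50 reads. Of the 75 genes called lower, 71 were called in every alternative run that tested them. Atp5mpl, Ndufa9, Mrpl27 and Mrpl33 lost the call without single libraries. With all 4 libraries, Ndufa9, Mrpl27 and Mrpl33 also lost it by DESeq2, at adjusted p values of 0.121, 0.0927 and 0.0693. Ndufa9 lost it by limma on logit levels as well, at an adjusted p of 0.124. Member sites lower numbered 163 to 178 with libraries left out and 103 with a minimum of 50 reads, where fewer sites were tested. The share of member sites called in both siVirma libraries was 41.9% to 56.1% with libraries left out, against 38.3% to 59.2% over all sites. It was 45.0% among sites with at least 50 reads in siNC, against 49.2% over all sites. When either siVirma library sufficed it was 62.1%, against 66.9%. Members lay above all sites without siNC replicate 2 (41.9% against 38.3%) and below them without siVirma replicate 2 (53.5% against 59.2%). The median level kept by members was 43.2% to 44.7% with libraries left out, 40.0% with a minimum of 50 reads, 44.1% with no minimum beyond the lists and 44.2% with site levels averaged per gene. Members higher in coverage numbered 20 to 39 with libraries left out and 8 without centring, and those lower 3 to 5 and 0. A coverage minimum of 10 changed nothing, because the lists start at 15.

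Whether same-numbered libraries were prepared together is not known here. Their deviations correlated at 0.01 for site levels and 0.14 for coverage, which cannot settle it. With a replicate block, 75 members and 165 sites were lower in level, and 38 members were higher and 9 lower in coverage. In EPSC 0 member rows were called by Fisher's exact test with a minimum of 10 or 50 reads, where 10 and 0 had an unadjusted p under 0.05.

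The 15 subunits tested at siNC levels of 0.1 to 0.3 had a median of 56 A+G reads in their shallowest library. A site under the lists' minimum level has no value, so falls of low sites are understated. With 2 libraries per group, an exact permutation test cannot go below 0.333.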
